A study of Mus musculus with 2 samples.

Results

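Bidirectional promoters were taken here as pairs of protein-coding genes on opposite strands whose 5' ends point away from each other and lie at most 1 kb apart. The GENCODE release M21 annotation of the mouse genome (mm10, the same assembly as GRCm38) held 734 such pairs on the 19 autosomes, made of 1448 genes, which is 6.96% of the 20807 autosomal protein-coding genes. The 5' end of a gene was that of its gene record. Each pair was described over a window that ran from one 5' end to the other with 500 bp on either side. The distance between the 5' ends ran from 1 to 987 bp, with a median of 128 bp and quartiles of 66.25 and 240 bp. Of the genes, 20 stood in 2 pairs, so 40 pairs held a gene that another pair also held.

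The data are DNase-seq of the retina of healthy mouse embryos aged 14.5 days, strain B6NCrl, as pooled male and female tissue. There was 1 group with 2 biological replicates, which share a donor label but carry different biosample labels, and no treatment or second tissue was compared. Replicate 1 was run on Illumina HiSeq 2000, HiSeq 2500 and NextSeq 500 instruments and replicate 2 on the HiSeq 2500 and NextSeq 500, so instrument and replicate cannot be told apart. The labels point to a nuclei and DNase protocol named for cultured cells, which was not used here, and they do not say how many retinas were pooled.

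DNase I cuts DNA where it is not wrapped tightly by nucleosomes, so peaks of cutting mark promoters and other regulatory sequences in use. In a bidirectional promoter, one stretch of open DNA serves genes that are read outward in opposite directions. Such promoters are known to be rich in CpG dinucleotides, to lack TATA boxes as a rule, and to serve many genes for DNA repair, replication and other functions that most cells need.

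The strongest replicate 1 peaks of 6 pairs are shown because they are textbook pairs or stand among the strongest, and because each lies wholly between the 5' ends of its genes. They are on the + strand of mm10, 150 bp each, and the capitals mark matches to the ETS (CCGGAAG), NFY (CCAAT, or ATTGG on the other strand) and E2F (TTTCCCGC, or GCGGGAAA on the other strand) motifs. Atm, the kinase that signals DNA double-strand breaks, and Npat, a coactivator of histone genes, have 5' ends 307 bp apart (chr9:53536836-53536985). Mcm4, a subunit of the replicative helicase, and Prkdc, the catalytic subunit of DNA-dependent protein kinase, lie 466 bp apart (chr16:15637416-15637565). Mrps12 and Sars2 encode a mitochondrial ribosomal protein and the mitochondrial seryl-tRNA synthetase and lie 172 bp apart (chr7:28741836-28741985). Pdcd10, a gene of cerebral cavernous malformation, and Serpini1, which encodes neuroserpin, lie 691 bp apart (chr3:75556996-75557145). Alg12, a mannosyltransferase of N-glycan assembly, and Creld2, a protein of the endoplasmic reticulum, lie 328 bp apart (chr15:88819416-88819565). Tada2b, an adaptor of histone acetyltransferase complexes, and Ccdc96 lie 303 bp apart (chr5:36484356-36484505).
Atm/Npat: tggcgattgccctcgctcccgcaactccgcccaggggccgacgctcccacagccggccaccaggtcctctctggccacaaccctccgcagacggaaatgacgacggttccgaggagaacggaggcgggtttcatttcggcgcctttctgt
Mcm4/Prkdc: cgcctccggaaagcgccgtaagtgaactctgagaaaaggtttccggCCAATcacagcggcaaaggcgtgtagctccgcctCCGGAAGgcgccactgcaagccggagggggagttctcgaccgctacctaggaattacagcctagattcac
Mrps12/Sars2: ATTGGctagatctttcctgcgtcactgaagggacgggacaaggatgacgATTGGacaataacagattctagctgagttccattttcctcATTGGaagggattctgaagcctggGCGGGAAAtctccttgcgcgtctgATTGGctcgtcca
Pdcd10/Serpini1: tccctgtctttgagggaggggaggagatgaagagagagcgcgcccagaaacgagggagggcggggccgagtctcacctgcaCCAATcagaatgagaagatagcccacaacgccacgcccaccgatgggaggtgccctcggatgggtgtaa
Alg12/Creld2: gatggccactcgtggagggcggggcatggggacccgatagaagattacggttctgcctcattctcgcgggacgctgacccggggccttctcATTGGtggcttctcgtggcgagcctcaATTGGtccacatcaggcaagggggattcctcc
Tada2b/Ccdc96: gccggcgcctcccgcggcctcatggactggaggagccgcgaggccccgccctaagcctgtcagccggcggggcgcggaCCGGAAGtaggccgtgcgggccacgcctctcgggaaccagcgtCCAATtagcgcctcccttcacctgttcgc

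The Mrps12/Sars2 peak held 4 NFY matches and 1 E2F match in its 150 bp, and the Alg12/Creld2 peak held 2 NFY matches. The Mcm4/Prkdc and Tada2b/Ccdc96 peaks held 1 ETS and 1 NFY match each. The Atm/Npat peak, also among the strong ones, held none of the 11 motifs searched.

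Replicate 1 had 165269 distinct peaks and replicate 2 had 219308, with 145732 and 183723 hotspots, the broader regions of raised cutting. The files hold no read counts, and the sequencing depth is unknown. A peak was ranked by its deposited score as a percentile among all peaks of its own library, where 100 is the strongest. The 5' ends of 7 of 7 retinal progenitor and 3 of 3 ganglion cell markers had a peak within 500 bp in both libraries. Of the markers of other cells, the lens genes Cryaa and Cryab and the microglial genes C1qb and C1qc had none in either library, while 1 of 2 pigment epithelium markers and 1 of 2 endothelial markers had one. In bulk tissue, fewer cells of a type and weaker opening in each cell cannot be told apart.

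Nearly all bidirectional promoters were open in the embryonic retina. A peak overlapped 708 of the 734 windows in replicate 1 (96.5%, exact Clopper-Pearson 95% interval 94.9 to 97.7%) and 706 in replicate 2 (96.2%, 94.5 to 97.5%). All 706 were open in both libraries, and 26 (3.54%) were open in neither. For comparison, 64.2% of all autosomal protein-coding 5' ends had a peak within 500 bp in replicate 1, 66.1% in replicate 2 and 63.1% in both. The intervals cover counting error only, since windows of 1 library are not replicates.

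The peaks there were also strong. The strongest peak of an open window had a median rank of 97.7 in replicate 1 and 98.2 in replicate 2. It reached rank 99 or more in 173 windows (24.4%) of replicate 1 and 228 (32.3%) of replicate 2, and in 118 windows of both. Among all peaks of the libraries, 1.03% and 0.985% reached that rank, a share set by the definition of a percentile. Around open 5' ends, within 500 bp, it was reached at 23.8% and 31.8% of pair genes. At the single promoters defined below it was reached at 10.6% and 12.8%. Ranks under 50 were found in 6 windows of replicate 1 and 1 of replicate 2. Both ranks were 90 or more in 669 of the 706 pairs open in both libraries (94.8%).

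**Figure D1:**
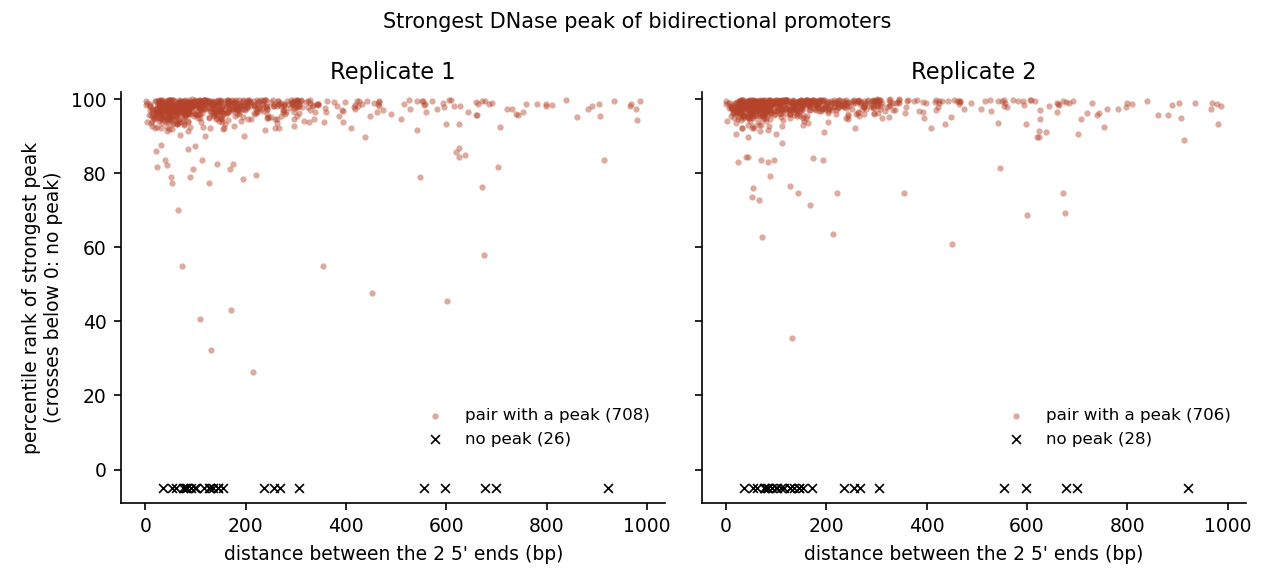
Percentile rank of the strongest peak (vertical axis) against the distance between the 5' ends in bp (horizontal axis) for the 734 pairs, with 1 panel for each library. Each point is a pair and each cross below 0 a pair without a peak. Most points lie above rank 90 at every distance, and 26 pairs in replicate 1 and 28 in replicate 2 have no peak.

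The libraries placed the strongest peak at the same site in most windows. The strongest peaks of replicate 1 and replicate 2 overlapped in 667 of the 706 pairs open in both (94.5%), and their centres lay a median of 20 bp apart. Ranks of the 2 libraries had a Spearman correlation of 0.755 over these 706 pairs, which is a description across windows and not a test over samples. At the single promoters defined below that were open in both libraries, 92.6% of strongest peaks overlapped and the correlation was 0.929. Agreement on the site was thus near that at pairs, and the rank correlation was lower at pairs.

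The highest lower ranks were those of Alg12/Creld2 (99.96 and 99.99 in replicates 1 and 2), with 5' ends at 88819318 and 88819646 on chromosome 15. Cep57/Fam76b, of which Cep57 encodes a centrosomal protein, came next with 99.96 in each library. Hjurp/Trpm8 had 99.97 and 99.92 with 5' ends 28 bp apart. Hjurp loads the centromeric histone and is used by dividing cells, while Trpm8 encodes the cold-sensing channel of sensory neurons. A peak over both 5' ends does not show which gene of a pair used it, and gene expression was not measured.

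Fbxo24/Lrch4 and Fbxo24/Gm20605 shared a single strongest peak of rank 99.94 and 99.96, so they stand for 1 promoter rather than 2. The counts given here nevertheless take each pair on its own. Over all open windows there were 689 distinct strongest peaks in replicate 1 and 687 in replicate 2. The rest of the 10 pairs with the highest lower ranks were Pdhx/Apip, Tada2b/Ccdc96, Utp15/Ankra2, Mms19/Ubtd1 and Txndc9/Eif5b. Pdhx encodes a subunit of the pyruvate dehydrogenase complex and had ranks of 99.81 and 99.96, with the peak centred at −3.5 bp from the midpoint of the pair. Utp15 serves ribosomal RNA processing. At Txndc9/Eif5b the strongest peak was centred at −621 bp from the midpoint, inside Txndc9, and overlapped only the edge of the window.

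Of 15 textbook bidirectional pairs looked up, 8 met the distance rule. All 8 were open in both libraries, against 96.2% of all pairs. Atm/Npat had 1 peak in each library, with ranks of 99.7 and 99.9. Mcm4/Prkdc had 2 peaks in each, with highest ranks of 99.6 and 99.3, and Mrps12/Sars2 had 2 peaks with 99.0 and 99.7. Psmb1/Tbp, a proteasome subunit gene beside that of the TATA-binding protein, had 97.5 and 99.3, and Pdcd10/Serpini1 had 99.0 and 99.7 from 3 peaks in each library.

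Brca1, a gene of repair by homologous recombination, and Nbr1, which encodes an autophagy receptor, had ranks of 98.5 and 99.9. There the strongest peak was centred 598.5 and 638.5 bp from the midpoint, inside Nbr1. The collagen pair Col4a4/Col4a3, which encodes chains of basement membrane collagen, was the weakest of the 8, with ranks of 54.9 and 62.7. The other 7 textbook pairs have 5' ends that overlap head to head in this annotation and so were not members. Among them are Hspd1/Hspe1, Col4a1/Col4a2, Ppat/Paics, Surf1/Surf2, Psmb9/Tap1 and Ranbp1/Trmt2a, which overlap by 21 to 271 bp.

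Such overlapping pairs and wider pairs lie just outside the rule. Of 446 pairs whose 5' ends overlap head to head by up to 1 kb, 433 were open in both libraries (97.1%). Of 104 divergent pairs over 1 kb and up to 2 kb apart, 84 were (80.8%). Next to the limit itself, 9 of 10 pairs over 900 and up to 1000 bp apart were open in both, and 10 of 11 over 1000 and up to 1100 bp.

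Against single promoters, genes of bidirectional pairs were open more often in both libraries. A single promoter was the 5' end of a gene in no pair, with no other protein-coding 5' end within 2 kb, and there were 17774. Within 500 bp of the gene's own 5' end, 1385 of 1448 pair genes had a peak in each library (95.6%, 94.5 to 96.6%). Of single promoters, 60.1% had one in replicate 1 and 62.2% in replicate 2. The difference was 35.6 and 33.4 percentage points, with a mean of 34.5 ± 1.50 (SD, n = 2).

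Most of that difference went with CpG content. The observed over expected number of CpG dinucleotides in the same 1000 bp had a median of 0.777 in pair genes and 0.498 in single promoters. When the 5' ends of all coding genes were put into 10 equal bins of this value, 87.8% of pair genes and 45.2% of single promoters fell in the upper 5. With single promoters weighted to the CpG spread of the pair genes, 93.0% and 93.8% of them had a peak. The difference then was 2.64 points in replicate 1 and 1.85 in replicate 2, a mean of 2.25 ± 0.559 (SD, n = 2). It was positive in 2 of 2 libraries. With 2 libraries of 1 group the smallest p of an exact sign-flip permutation is 0.5, so this and the differences below carry no test.

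Among the bins with over 100 pair genes, the gap was widest in bin 5. There, 90.5% and 92.4% of 105 pair genes had a peak in the 2 libraries, against 81.2% and 84.8% of 1828 single promoters. In bin 6 it was 98.9% of 184 pair genes in each library, against 93.8% and 95.1%. From bin 7 up, both classes were nearly all open, and in bin 10, the richest, pair genes had a peak in 98.5% and single promoters in 99.4% and 99.6%. Bins 1 to 4 together held few pair genes, 7, 17, 18 and 29 in order, and their intervals overlapped those of the single promoters in both libraries.

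**Figure D2:**
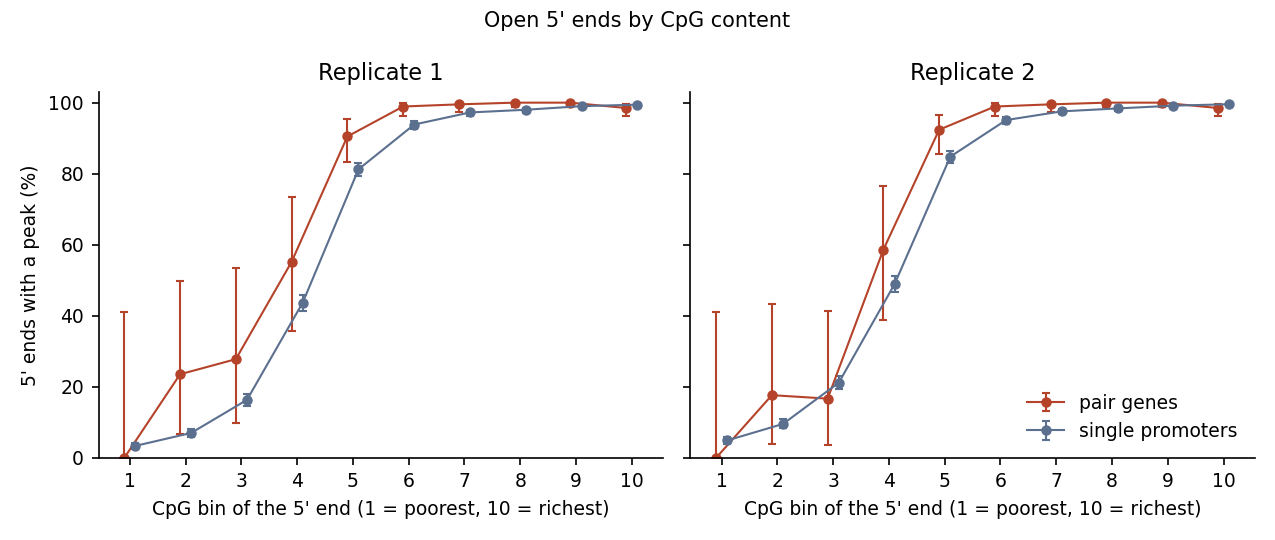
Share of 5' ends with a peak within 500 bp (vertical axis, percent) by bin of CpG observed over expected (horizontal axis, from poorest to richest), for pair genes and single promoters, with 1 panel for each library. Bars are exact Clopper-Pearson 95% intervals. Pair genes rise from 0% in bin 1 to 98.5% in bin 10, and pair genes lie above single promoters in bins 5 and 6.

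The strongest peak within 500 bp of an open 5' end ranked higher at pair genes. Its median rank was 97.7 and 98.2 in replicates 1 and 2, against 94.4 and 95.2 at single promoters, a difference of 3.17 ± 0.192 (SD, n = 2). At equal CpG content, taking medians bin by bin, it was 2.21 ± 0.0532. A rank of 90 or more was reached at 93.8% and 94.7% of open pair genes and at 65.4% and 66.2% of open single promoters. Genes of a pair share peaks, so 1 peak can count for both.

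Single promoters with a noncoding gene diverging within 1 kb, of which there were 729, stood between the classes before CpG content was taken into account. They had a peak in 87.7% and 88.5% of cases, with a median rank of 96.9 and 97.3. At the pair genes' CpG content these shares were 93.7% and 94.3%, within 1 percentage point of the 93.0% and 93.8% of all single promoters.

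Hotspots at the highest deposited value were also more frequent over pairs than over single promoters. In windows of equal width (1129 bp, the median width of a pair window), a hotspot at the ceiling of the deposited −log10 false discovery rate, 100, overlapped 95.2% and 96.2% of pairs and 53.9% and 57.5% of single promoters. The difference was 40.0 ± 1.94 percentage points (SD, n = 2). At equal CpG content, taken around the midpoint for pairs and around the 5' end for single promoters, single promoters reached 89.0% and 91.7%. These shares count windows without a peak as well. Among open windows only, 98.7% and 99.7% of pairs and 88.0% and 91.1% of single promoters reached the ceiling. The widest hotspot over an open window had a median of 1299 and 1630 bp in pairs and 1096 and 1376 bp in single promoters. Single promoters with a divergent noncoding gene had the widest, at 1309 and 1666 bp, while 85.0% and 86.8% of all their windows, open or not, reached the ceiling. Bin by bin at the pairs' CpG content the widths came nearer, at 1303 and 1612 bp against 1218 and 1544 bp.

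The number of peaks did not separate the classes. In windows of equal width, open pairs had a mean of 1.55 and 1.65 peaks and open single promoters 1.57 and 1.65. The difference, −0.0110 ± 0.0149 (SD, n = 2), was smaller than its spread, and its sign turned under 5 of the alternatives tried.

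The strongest peak usually lay between the 5' ends. Its centre did so in 443 of 708 open windows of replicate 1 (62.6%, 58.9 to 66.1%) and in 466 of 706 of replicate 2 (66.0%, 62.4 to 69.5%). The median distance of the centre from the midpoint of the pair was 39.75 and 37.75 bp. The rest were centred inside one of the genes, 19.4% and 18.1% inside the gene on the minus strand and 18.1% and 15.9% inside the gene on the plus strand.

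The share rose with the distance between the 5' ends and then fell. At 1 to 100 bp (306 pairs) it was 45.8% and 51.5%, although the stretch between the 5' ends was only 5.39% of the window at the median distance. At 201 to 300 bp (96 pairs) it was 80.6% and 79.6%, and at 301 to 500 bp (64 pairs) 81.0% and 85.7%. At 501 to 1000 bp (68 pairs) it was 65.1% and 71.4%. Single promoters were measured over an interval of the same length upstream of their 5' end, in a window of the same width. They had the peak there in 27.5% and 28.0%, 49.0% and 52.8%, 50.7% and 54.9%, and 53.4% and 57.9% of open cases for these 4 classes.

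**Figure D3:**
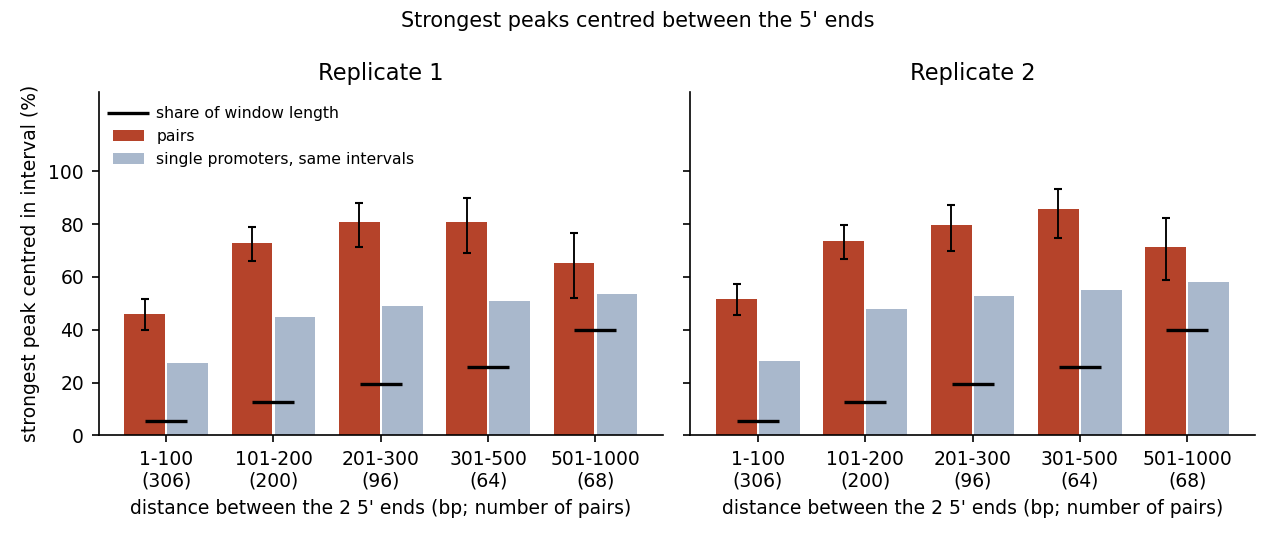
Share of open windows whose strongest peak is centred between the 5' ends (vertical axis, percent) by distance between the 5' ends (horizontal axis, bp, with the number of pairs), with 1 panel for each library. Red bars are pairs with exact Clopper-Pearson 95% intervals, pale blue bars are single promoters over intervals of the same length, and black marks give the share of the window's length. Pairs lie above single promoters in all 5 classes of both libraries, and most in the 3 classes from 101 to 500 bp.

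The 5' ends of close pairs were mostly covered by 1 peak, and wider pairs more often held several. At 1 to 100 bp, the strongest peak covered both 5' ends in 68.4% and 70.0% of open windows, and at 101 to 200 bp in 10.9% and 12.6%. All peaks are 150 bp wide, so none can cover both 5' ends of a pair at that distance or more, and the fall is bound to this width. The share of open windows with 2 peaks or more was 32.7% and 39.1% at 1 to 100 bp and 71.4% and 85.7% at 501 to 1000 bp. The mean number of peaks rose from 1.42 and 1.51 to 2.24 and 2.49 between these classes. In single promoter windows of the same widths it rose less, from 1.53 and 1.61 to 1.75 and 1.90.

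The most peaks were found at Ccni/2010109A12Rik and Mfsd8/Abhd18, with 5 in each library. Ccni encodes a cyclin, and its pair had a distance of only 23 bp with the strongest peak 284 and 304 bp from the midpoint. Mfsd8, a lysosomal membrane protein gene, had a strongest rank of 86.6 and 83.1. 2700097O09Rik/Srp54a, Asphd1/Sez6l2, Fiz1/Gm44973 and Cbx5/Hnrnpa1 had 4 peaks in each library. The naming rule took 5 pairs, and Cbx5/Hnrnpa1, tied with the last of them, was added after its values were seen.

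Seen from the gene's own 5' end, the strongest peak lay further upstream at pair genes. Its centre had a median position of −55.5 bp in each library, where minus means upstream, and lay upstream at 80.4% and 82.1% of open pair genes. At single promoters the median was −9.5 and −19.5 bp, and 54.8% and 59.8% lay upstream. More than 75 bp into the gene, 5.92% and 5.85% of pair genes and 24.5% and 22.5% of single promoters had their strongest peak. Bin by bin at the pair genes' CpG content the median of single promoters was −14.1 and −26.7 bp. Single promoters with a divergent noncoding gene lay between, at −37.5 and −46.5 bp. In a pair the partner's first bases lie upstream, so the positions of the partners are not independent of each other. A shared peak between the 5' ends lies upstream of both genes, and a shared peak inside either gene lies upstream of its partner. Part of the upstream shift is thus set by the layout of a pair, and how much was not tested.

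**Figure D4:**
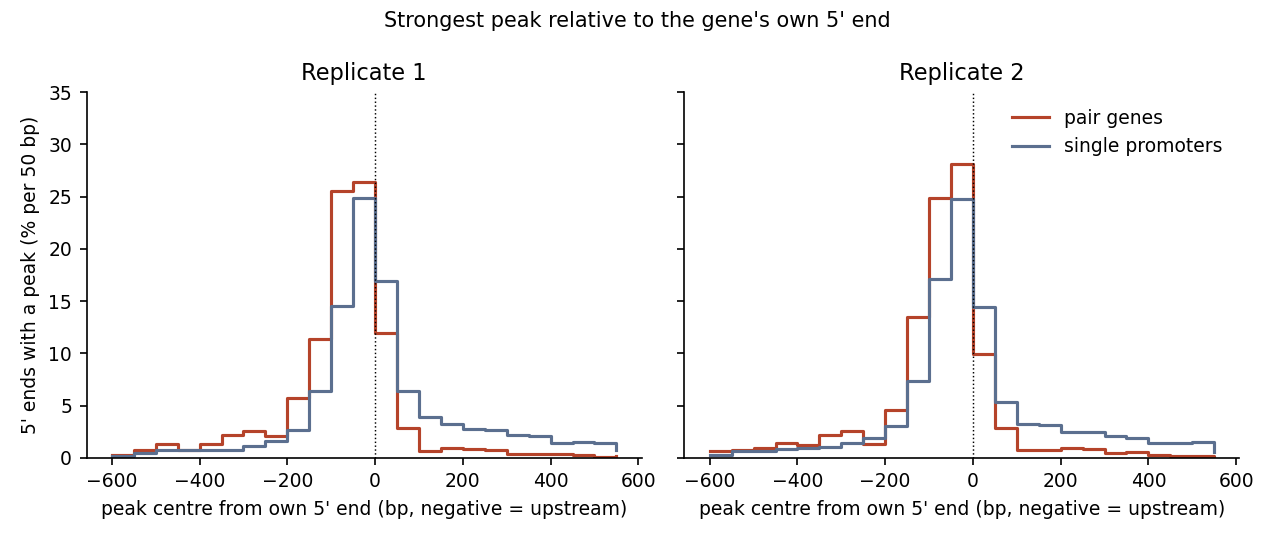
Position of the centre of the strongest peak from the gene's own 5' end (horizontal axis, bp, negative is upstream) as percent of open 5' ends per 50 bp (vertical axis), for pair genes and single promoters, with 1 panel for each library. The curve of pair genes is shifted to the upstream side, with medians of −55.5 bp against −9.5 and −19.5 bp, and is lower than that of single promoters beyond 75 bp into the gene.

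The strongest peaks of pairs held NFY and ETS motifs more often than those of single promoters. Matches of 11 short motifs were counted in the 150 bp of each strongest peak on both strands. They were NFY (CCAAT), ETS (CCGGAAG), SP (GGGGCGG), NRF1 (GCATGCGC), CRE (TGACGTCA), YY1 (AAGATGGCG), E2F (TTTCCCGC), ZNF143 (ACTACAATT), the TATA box (TATAAA), a homeodomain core (TAATTA) and an E-box (CAGCTG), and none holds another in full. In 150 bp around all autosomal protein-coding 5' ends the share with a match was 21.8% for NFY, 8.49% for ETS, 21.9% for SP, 2.37% for NRF1, 1.76% for CRE, 1.51% for YY1, 0.750% for E2F, 0.250% for ZNF143, 6.85% for the TATA box, 1.48% for the homeodomain core and 9.51% for the E-box. In 150 bp around the midpoints of all pairs, with a peak or without, it was 33.9% for NFY, 18.7% for ETS and 4.50% for the E-box. A match is a description of letters and not a binding site.

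NFY, the factor that binds CCAAT boxes, had a match in 38.1% and 39.1% of pair peaks in replicates 1 and 2, and in 25.9% and 26.7% of single promoter peaks. At equal CpG content single promoters had 26.3% and 27.5%. The raw difference was 12.3 ± 0.172 percentage points (SD, n = 2). At least 2 NFY matches stood in 15.5% and 16.6% of pair peaks and in 7.94% and 8.02% of single promoter peaks. Of the matches in pair peaks, 74.8% and 78.0% lay between the 5' ends, at a median of 53 and 52 bp from the nearer one. In single promoter peaks a like share, 75.4% and 77.3%, lay upstream of the 5' end, and the median distance of all matches from it was 72 and 76 bp. A pair has 2 5' ends of which the nearer was taken, and a single promoter has only its own. The distances of pairs are thus shortened by the measure and are not a like comparison.

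ETS factors, a family with many members that act at promoters, had a match in 22.0% and 20.7% of pair peaks, 11.6% and 11.0% of single promoter peaks, and 13.3% and 13.0% at equal CpG content. The raw difference was 10.1 ± 0.550 percentage points (SD, n = 2). The matches lay a median of 22 and 21 bp from the nearer 5' end, and 48.7% and 50.3% of them lay between the 5' ends. In single promoter peaks 51.6% and 54.9% lay upstream, and the median distance of all matches was 35 and 37 bp. As for NFY, the nearer 5' end was taken in pairs, so these distances are not a like comparison either.

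The motifs went with different spacings. Pairs with an NFY match in the strongest peak had a median distance of 166 and 167 bp between their 5' ends, and those without it 99 and 98 bp. Pairs with an ETS match had 79.5 bp in each library and those without it 142.5 and 143 bp. The median rank was 98.3 and 98.9 with NFY and 97.3 and 97.8 without it, and 97.3 and 98.2 with ETS and 97.9 and 98.2 without it. These are descriptions over windows, and they were not tested.

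The E-box, the type bound by neural basic helix-loop-helix factors, was rarer in pair peaks, at 5.08% and 4.96% against 9.43% and 9.79% in single promoter peaks and 7.85% and 7.82% at equal CpG content. The raw difference was −4.59 ± 0.348 percentage points (SD, n = 2). SP sites, which GC-rich promoters share, stood in 37.3% and 38.5% of pair peaks, 34.7% and 34.0% of single promoter peaks and 39.3% and 39.6% at equal CpG content, so the order turned once CpG content was equal. For NRF1 the shares were 5.08% and 5.38% in pairs, 3.66% and 3.47% in single promoters, and 4.42% and 4.30% at equal CpG content. The TATA box had a match in 2.12% and 1.56% of pair peaks and 2.17% and 2.40% of single promoter peaks, with 1.89% and 2.00% at equal CpG content. The homeodomain core stood in 0.565% and 0.567% of pair peaks, 0.637% and 0.832% of single promoter peaks, and 0.414% and 0.472% at equal CpG content. For the homeodomain core in both libraries, and the TATA box in replicate 1, the order thus turned at equal CpG content. CRE, YY1, E2F and ZNF143 stood in at most 3.97% of pair peaks.

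**Figure D5:**
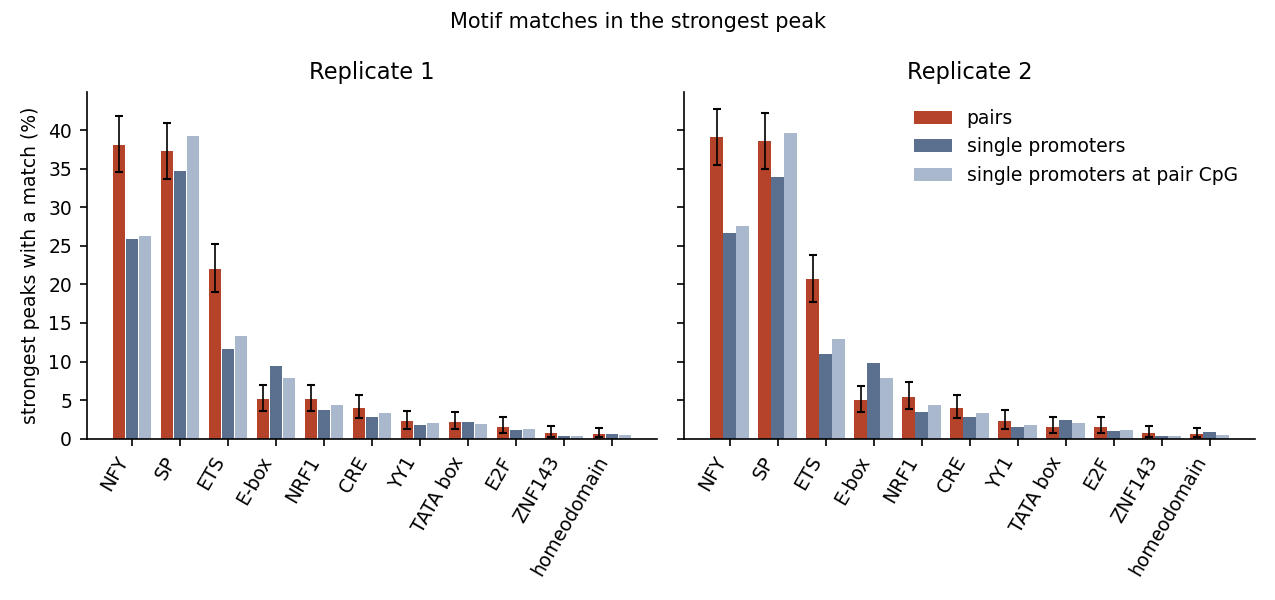
Share of strongest peaks with a match (vertical axis, percent) for 11 motifs (horizontal axis) in pairs, in single promoters, and in single promoters at the CpG content of pairs, with 1 panel for each library. Bars on the pairs are exact Clopper-Pearson 95% intervals. For NFY and ETS the pairs stand above both single promoter values, at 38.1% and 22.0% in replicate 1, and for the E-box below them.

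By function, listed genes of DNA repair and replication stood in bidirectional pairs often and the listed eye transcription factors and signals did not. The lists were made by name and are not complete, so they do not speak for genes outside them. Of 139 repair and replication genes 38 were in pairs (27.3%), against 6.96% of all coding genes. The 39 pairs that held them were open in both libraries in 38 cases, near the 96.2% of all pairs, with median ranks of 98.1 and 98.7. Xrcc3/Zfyve21 had 99.9 and 99.7, Rpa1/Smyd4 had 99.3 and 99.7, and Atm/Npat is given above. Xrcc3 acts in homologous recombination and Rpa1 binds single-stranded DNA. The exception was Pinlyp/Xrcc1, given below. Of the 84 listed eye transcription factors and signals, 0 were in a pair and 82 were single promoters, of which 77 were open in both libraries with median ranks of 89.9 and 92.4. Of the 84 single promoters of repair and replication genes, 80 were open, with median ranks of 97.2 and 98.0. Over all single promoters, 59.0% were open in both libraries, with median ranks of 94.4 and 95.2. Membership of a pair is a fact of the annotation and not of the retina.

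Genes of energy metabolism and protein synthesis were found in pairs as well. Their shares in pairs read against 6.96% of all coding genes, and their open pairs against 96.2% of all pairs open in both libraries, to which the open shares lie near. Complex I of the respiratory chain had 12 of 44 genes in pairs, with 12 of 12 pairs open in both libraries (27.3% of its genes), and the mitochondrial ribosome had 18 of 78 genes (23.1%), with 18 of 18 open. Mrps18b/Ppp1r10 had ranks of 99.9 and 99.7. Mrpl49/Fau, which joins a mitochondrial ribosomal protein gene to that of cytoplasmic ribosomal protein S30, had 99.7 and 99.1. The aminoacyl-tRNA synthetases had 5 of 38 genes in pairs, all open, and S100pbp/Yars ranked 99.2 and 98.7. The proteasome had 7 of 49 genes and the chaperonins 3 of 11, with 7 of 7 and 3 of 3 pairs open, among them Tsacc/Cct3 at 99.7 and 99.5. Cytoplasmic ribosomal protein genes had 8 of 79 genes in pairs (10.1%), of which 7 of 8 pairs were open and the other was Rnf151/Rps2.

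Ciliary genes had 12 of 68 members in pairs (17.6%, against 6.96% of all coding genes). All 12 of these pairs were open, against 96.2% of all pairs, with median ranks of 98.2 and 99.3. Cramp1l/Ift140, of which Ift140 carries cargo out of the cilium, had ranks of 99.3 and 99.3. Tctn3/Entpd1, of which Tctn3 belongs to the ciliary transition zone, had 99.2 and 99.9, and Sclt1/D3Ertd751e had 99.5 and 99.1. Zinc finger genes with a Zfp symbol had 20 of 385 in pairs (5.19%), below the share of all coding genes, and 17 of 18 pairs were open, near the share of all pairs.

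Chemosensory receptor genes had 2 of 1493 members in pairs (0.134%, against 6.96% of all coding genes). Both pairs were open, against 96.2% of all pairs. Nt5c3/Vmn1r4, with 5' ends 83 bp apart, had ranks of 99.0 and 98.9. Nt5c3 encodes a nucleotidase and Vmn1r4 a vomeronasal receptor. Tas1r1/Nol9, a taste receptor gene and a gene of ribosomal RNA processing, had 96.5 and 92.5. Of 1477 chemosensory genes with a single promoter, 15 were open in both libraries, against 59.0% of all single promoters. The list counts were chosen with results of these data known, and no list was tested.

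Histone genes had 27 of 67 members in pairs (40.3%, against 6.96% of all coding genes), the highest share of the 12 lists. In 13 of their 14 pairs both genes were histones. The pairs were open in both libraries in 11 of 14 cases, against 96.2% of all pairs. Their open windows were covered by hotspots over a median of 26.4% of their length in each library, against 96.8% and 100% over all open pairs. Hist1h2an/Hist1h2bp and Hist1h2ag/Hist1h2bj each had ranks of 98.3 and 98.9, and Hist1h2ah/Hist1h2bk had 97.9 and 98.4, and all 3 had NFY matches in both libraries. Hist1h2ap/Hist1h2br, Hist1h2bq/Hist1h2ao and Hist1h2ba/Hist1h2aa had no peak, although their CpG values of 0.966, 0.975 and 0.771 were near or above the 0.781 median of open pairs. Many replication histone genes are near-identical copies, and how the authors treated reads that fit several copies is not stated in the sources used here. These 3 absences are therefore uncertain, and whether each of the pairs has near-identical copies was not examined. The low hotspot cover of the open histone pairs is uncertain for the same reason. The part of mapping in the absences and in the low cover was not tested.

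The 26 pairs without a peak in either library also had no hotspot in either. Their CpG value, taken around the midpoint of the pair, had a median of 0.227, against 0.781 in pairs open in both. Of the 26, 23 lay below the median of all coding genes (0.568, taken around 5' ends) and the 3 histone pairs above it. Of all 734 pairs, 78 lay below that median, of which 53 were open in both libraries, and 656 lay above it, of which 653 were.

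The genes of these pairs have varied known roles. Pecam1, an endothelial adhesion gene, is paired with Milr1, a receptor gene of mast cells, and Smyd1, a muscle gene, with Cd8b1, a T cell gene. Ifit1bl2/Ifit1 belong to the interferon response. Gm12355/Gsdma3 includes a gasdermin gene of skin, Lypd4/Dmrtc2 and Zfp558/Mbd3l1 include the germ cell genes Dmrtc2 and Mbd3l1, and Aspa/Gm49340 includes the aspartoacylase gene of mature oligodendrocytes. Ccnt1/4930415O20Rik includes the cyclin T1 gene, which most cells use for transcription elongation. Gml/Gml2, Fam217a/4933417A18Rik, Gm20075/Gm17190 and 4930430F08Rik/1700017N19Rik had no peak either.

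For some of these genes the record starts far from the start of the principal transcript. Of the 51 genes in pairs without a peak, 14 had the 5' end of their APPRIS principal transcript more than 500 bp away, and 9 of those 14 had a peak within 500 bp of it in both libraries, a share near the 63.1% of all coding 5' ends. These 14 genes were looked at after the values were seen, and those named next were chosen in the same way. Rps2, a ribosomal protein gene paired with the testis gene Rnf151, had no peak at its gene record's 5' end and a peak of rank 98.5 and 99.9 at the principal start 1947 bp away. Trim28, a corepressor gene paired with Slc27a5, had 97.5 and 96.4 at 25038 bp, Dgcr2 had 97.7 and 97.0 at 6869 bp, and Rab3il1 had 94.6 and 95.2 at 16524 bp. Of the genes named above, Zfp558 had 93.6 and 94.0 at 4709 bp and 4930430F08Rik had 93.6 and 95.4 at 1028 bp. Pecam1 and Smyd1 had no peak at principal starts 35369 and 59980 bp away either.

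A peak was found in replicate 1 only at 2 pairs. Nt5c3b/Klhl10 had a rank of 40.7 there and Pinlyp/Xrcc1, which holds the single-strand break repair gene Xrcc1, had 43.2 from 2 peaks. The strongest peaks lay toward the window's edge, at −432 and 387 bp from the midpoint, and both pairs had low CpG values of 0.172 and 0.245. Hotspots at the ceiling overlapped both windows in both libraries. They covered 28.1% and 27.3% of the Nt5c3b/Klhl10 window in replicates 1 and 2, and 45.6% and 22.4% of the Pinlyp/Xrcc1 window. The ceiling value belongs to a whole hotspot, so it does not show raised cutting at the 5' ends themselves.

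The weakest open pairs, chosen by their ranks, were H2-T22/Gm6034 at 26.2 and 63.7, Bhmt2/Dmgdh at 32.3 and 35.6, Sox6/1110004F10Rik at 45.5 and 68.7, and Duox2/Duoxa2 at 47.7 and 60.8. H2-T22 encodes a nonclassical histocompatibility protein, Bhmt2 and Dmgdh are genes of methyl group metabolism, and Duox2 and Duoxa2 encode a thyroid oxidase and its maturation factor. Next came Col4a4/Col4a3, Odf3l1/Cspg4 at 54.9 and 74.8, and Sncg/Mmrn2 at 57.9 and 69.4. Sncg, the gamma-synuclein gene, is known for its expression in retinal ganglion cells, and Cspg4 is a pericyte and oligodendrocyte precursor gene. These 7 pairs had CpG values of 0.285 to 0.622. Each ranked higher in replicate 2, as did most pairs, since 245 of the 706 open in both ranked higher in replicate 1.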

How the data were processed

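DNase-seq of embryonic mouse retina was measured in 2 libraries of 1 group. Each library has its own peak list and its own hotspot list on mm10, per the labels and the deposited lists of files. Which aligner and caller made them, with which versions and filters, is not given in the sources used here. Peaks are 150 bp wide, and the score that the authors deposited with them, between 1 and 150, has no stated meaning, so it served only as a rank within a library. Hotspots carry a −log10 false discovery rate from the authors, between 1.30 and a ceiling of 100. Exact duplicate peaks (34 and 56) were removed. Scores were written in decimal form in 12.1% and 7.80% of peaks, which were kept.

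Genes came from GENCODE M21 and sequences from the RefSeq copy of GRCm38. A window was open when at least 1 bp of a peak overlapped it. Values stand for each library alone or as the mean with its SD (n = 2), and shares carry exact Clopper-Pearson 95% intervals. CpG content was observed over expected within 500 bp of a 5' end, in 10 equal bins over all autosomal protein-coding genes, and single promoters were weighted to the bins of pair genes. The CpG value of a whole pair was taken within 500 bp of its midpoint instead. For hotspots, single promoters were weighted to the bins of these midpoint values. Python 3.11.15, numpy 2.4.6, pandas 2.3.3, scipy 1.17.1 and matplotlib 3.10.9 were used, and the steps were checked on simulated pairs, single genes and peaks.

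Named pairs followed a rule. It took textbook pairs, the 10 with the highest lower rank, up to 15 without a peak in alphabetical order of the plus-strand gene, those with a peak in 1 library, the 5 with the most peaks, and up to 3 pairs of each of 12 gene lists. The members, lists and motifs were chosen with earlier results of these data known. The alternatives changed the distance limit, the flank, the peaks used, the 5' end, the overlap, the single promoters, the members and the libraries. Sex chromosomes were left out, as the rule asks. Some pairs that the naming rule takes are not reported here.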

Additional observations from a re-analysis of the deposited data

How the results depend on the processing

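The share of pair windows open in both libraries was 96.5% with a limit of 500 bp between 5' ends, 95.6% with a flank of 250 bp, 95.6% with only peaks at or above the median score of their library, 97.5% with APPRIS principal 5' ends (756 pairs), and 96.2 to 96.5% when 1 library was left out. The differences of pair genes from single promoters kept their sign under every alternative, except for the number of peaks. The difference in open 5' ends was 37.6 points with peaks at or above the median score and 37.5 against single promoters without any other annotated 5' end within 2 kb. At equal CpG content it was 3.11 points with the 250 bp flank and 2.90 with peaks at or above the median score. For the median rank these were 2.74 with peaks at or above the median score and 3.48 against the stricter single promoters. The hotspot difference was 43.3 points against the stricter single promoters, and alternatives that only change peaks do not touch it. With APPRIS 5' ends, 71.9% of strongest peaks lay between the 5' ends and the NRF1 difference was 2.03 points.

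The difference in peaks per window was −0.0378 with the 500 bp limit. It turned positive with the 250 bp flank (0.0277), with peaks at or above the median score (0.0483), without decimal scores (0.0115), with APPRIS 5' ends (0.0164) and against the stricter single promoters (0.00559).

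For 4 results the alternatives were added after the data were seen. The rank difference at equal CpG content was 1.97 with the 500 bp limit, 2.06 with the 250 bp flank, 1.96 with peaks at or above the median score, 2.15 with peak centres inside the window and 2.26 against the stricter single promoters. The NFY difference was 12.0, 11.8 and 11.8 points under the first 3 of these, 12.8 against the stricter single promoters, and 11.1 without genes of 2 pairs. The ETS difference was 11.2 with the 500 bp limit and 10.7 against the stricter single promoters. The E-box difference was −5.19 and −5.03 under these, and −3.56 with APPRIS 5' ends.

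No paired analysis was possible because the 2 libraries belong to 1 group. The depth is unknown, and no limit of detection was computed for windows without a peak.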
